A study of Mus musculus with 28 samples.

Results

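The interaction between diet and lipopolysaccharide (LPS) challenge was examined in the wild-type-only experiment of a mouse spleen study, to find which LPS responses were larger or smaller in mice fed abscisic acid (ABA). It was computed as the LPS response on the ABA diet minus the LPS response on the control diet, both as log2 differences against unchallenged mice of the same diet. A positive value therefore marks a larger rise or a smaller fall on ABA, and a negative value a smaller rise or a larger fall. The members are the 12 arrays whose titles name this experiment, of 28 arrays in the whole series. They fall into 4 groups: control diet with LPS (4 arrays), ABA diet with LPS (4 arrays), control diet without LPS (2 arrays) and ABA diet without LPS (2 arrays). All 12 came from mice labelled wild-type, of the strain PPAR g flfl; MMTV-Cre-, so every mouse carried the floxed Pparg gene and none carried the Cre transgene that removes it. The dose and time of LPS, the dose and length of ABA feeding and the age of the mice are not given in the sources used here. Whether replicates were separate animals is not said in the labels, so each p-value refers to the spread among these arrays, which may be technical.

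LPS is a component of the outer membrane of Gram-negative bacteria that is sensed by TLR4, and in spleen it drives cytokines, chemokines and interferon-stimulated genes in macrophages and other leukocytes. ABA is a plant hormone that mammals also make. It has been studied as a dietary anti-inflammatory compound, with LANCL2, cAMP signalling and the lipid-sensing nuclear receptor PPAR gamma as proposed mediators.

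Each array measured biotin-labelled total RNA on 45101 probe sets, given as log2 values. The 12 arrays correlated with each other at 0.952 to 0.997, and at 0.977 or more within a group. The lowest value, 2.29, was held by 41.1% to 43.2% of the probe sets on an array, and a value within 0.5 log2 units of it is called near the lowest here. Of 18193 genes, each represented by the probe set with the highest mean, 12311 were above the 40th percentile of their array on at least 2 arrays and were tested. Since more than 40% of the probe sets held the lowest value, that percentile was the lowest value itself. The filter thus asked only for a value above the lowest on 2 arrays, and many genes tested lay close to it. The spleen markers Ms4a1 (B cells, 9.87 to 11.44 over the 12 arrays), Cd3e (T cells, 8.15 to 10.2) and Csf1r (macrophages, 11.01 to 13.82) were well above the lowest value on every array, and the liver genes Alb and Apoa1 were at or near it. The pancreas genes were high on 2 arrays, with a mean log2 level of 8.05 on control diet without LPS replicate 1 and 6.09 on control diet with LPS replicate 2, against 2.32 to 2.51 on the other arrays. The erythroid genes had a mean of 9.78 on ABA diet without LPS replicate 1 and 5.63 on its replicate 2, a wider gap than in any other group. Each group without LPS holds only 2 arrays, and that number limits the precision of every value below.

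LPS changed many genes on both diets, and the diets differed past the threshold in few of them. Averaged over the diets, LPS changed 26.6% of the genes tested: 1787 rose (14.5%) and 1486 fell (12.1%) (limma, Benjamini-Hochberg adjusted p under 0.05). On the control diet alone 877 genes rose (7.12%) and 805 fell (6.54%). On the ABA diet 1184 rose (9.62%) and 716 fell (5.82%). Of the genes that rose, 686 did so on both diets, which is 78.2% of those on the control diet and 57.9% of those on ABA. Of those that fell, 361 were shared, 44.8% of the control diet list and 50.4% of the ABA list. No gene rose on 1 diet and fell on the other (0 genes). These lists are not a test of the diet, since a gene can pass on 1 diet and narrowly miss on the other.

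The test of the difference itself called 33 genes, 0.268% of those tested. The LPS response was higher on ABA for 19 of them (0.154%) and lower for 14 (0.114%). Without adjustment 823 genes had a p under 0.05, of which 566 were higher and 257 lower on ABA. The median standard error of the interaction was 0.27 log2 units, and its 90th percentile was 0.63. An estimate beyond 1 log2 unit in either direction was found for 4.59% of the genes, 284 above and 281 below. Over all genes tested the median interaction was 0.01, and estimates ran from -2.94 to 3.21.

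**Figure D1:**
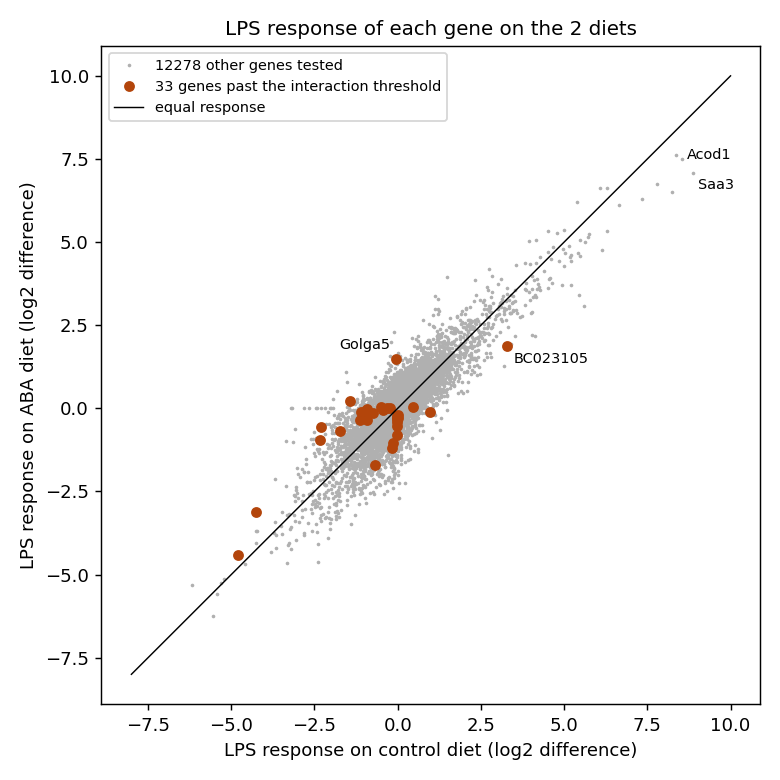
LPS response of each of the 12311 genes tested on the control diet (horizontal axis, log2 difference between LPS and no LPS) and on the ABA diet (vertical axis, same unit), with the line of equal response. The genes lie along the line, the 33 genes past the interaction threshold are marked in orange, and the strongest rises (Acod1 and Saa3, top right) lie below the line.

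Most of the 33 genes stood out through their levels without LPS. In 31 of them the diet difference was larger without LPS than with it, a share that was not counted over all genes. In the 2 against 2 arrays without LPS, 29 passed the test for diet, as did 50 (0.406%) of all genes tested. Only BC023105 and Ndufaf1 passed the test for diet among the arrays with LPS, where 12 genes (0.0975%) did in all. Both diet differences are parts of the interaction, so these counts follow in part from how the 33 genes were picked. In 23 of the 33 genes all 8 arrays with LPS were near the lowest value, and in 6 all 12 arrays were. The fit takes a single spread per gene from all 4 groups, so these nearly constant arrays lower the standard error. For such genes the ± and p do not measure the spread of the 2 against 2 unchallenged arrays alone. In Btbd11 the standard deviation without LPS was 3e-04 on the control diet and 0.431 on ABA. With LPS it was 0.0031 and 0.0369. The interaction was under 1 log2 unit in size in 23 genes and under 0.5 in 12. All 33 kept their sign when any 1 of the 12 arrays was left out, but only 12 passed the test in each of those 12 fits and 21 lost the call in at least 1. Leaving out 1 unchallenged array leaves a lone array in its group, with no spread of its own. A call kept in such a fit is therefore not support for it. In 17 genes at least 10 arrays were near the lowest value. Since the filter asks for 2 arrays, such genes could enter the test through the 2 arrays of the group where they were high, and their calls are given as values and not as support for a pattern. When genes had to lie at least 1 log2 unit above the lowest value on 4 arrays, 8 of the 33 were still tested and none of the 8412 genes tested passed (0 genes by limma, with 541 at a p under 0.05 before adjustment).

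In 5 called genes the mean log2 level over the 12 arrays was above 4, a level chosen after the values were seen. In 4 of them no array was near the lowest value, while BC023105 was near it on the 4 unchallenged arrays. BC023105, a transcript named by its cDNA clone, showed a smaller rise with LPS on ABA. Its log2 levels were 2.38 and 2.39 without LPS on the control diet, 2.39 on both arrays without LPS on ABA, 5.89, 5.48, 5.87 and 5.38 with LPS on the control diet, and 4.27, 4.35, 4.27 and 4.13 with LPS on ABA. All 4 arrays of LPS on ABA lay below all 4 of LPS on the control diet, and the unchallenged arrays were level. Measured from those near-lowest values it rose by 3.27 log2 units on the control diet and by 1.86 on ABA, so each rise is a lower bound. The interaction was -1.41 ± 0.20 (SE; limma adjusted p = 0.0314), nearly all of it the difference of -1.40 between the diets with LPS (adjusted p = 0.00598).

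Golga5, which encodes a coiled-coil tethering protein of the Golgi, rose with LPS on ABA and not past the threshold on the control diet. Its levels were 5.99 and 5.99 on the control diet without LPS, 4.93 and 5.14 on ABA without LPS, 6.15, 5.89, 5.95 and 5.80 on the control diet with LPS, and 6.76, 6.49, 6.57 and 6.20 on ABA with LPS. The ABA arrays were the lowest of the 12 without LPS and the highest with it, and no groups of different diet overlapped. The response was -0.04 on the control diet and 1.47 on ABA, with an interaction of 1.51 ± 0.21 (adjusted p = 0.0274).

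Tfec, a transcription factor of the MiT family expressed in macrophages, showed the opposite order. Its levels were 5.62 and 5.55 on the control diet without LPS, 6.29 and 6.28 on ABA without LPS, 6.45, 6.60, 6.56 and 6.65 on the control diet with LPS, and 6.15, 5.97, 6.39 and 6.22 on ABA with LPS. ABA was higher without LPS and lower with it, again with no overlap between diets. The gene rose by 0.98 with LPS on the control diet, and its difference on ABA was -0.10, which did not pass (interaction -1.08 ± 0.14, adjusted p = 0.0234).

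Scly, the selenocysteine lyase, and Fam78a differed by diet past the threshold only without LPS. Scly was at 4.73 and 4.70 on the control diet without LPS and at 5.68 and 5.67 on ABA without LPS, and all 8 arrays with LPS lay between 4.50 and 4.78. It fell by 1.05 with LPS on ABA, while the control diet difference was -0.15 (interaction -0.90 ± 0.12, adjusted p = 0.0203). With the mean of all probe sets of Scly in place of the brightest, the interaction was -0.52 and did not pass (adjusted p = 0.19, within a range of 0.00732 to 0.962 over all alternatives for this gene). Fam78a was at 6.08 and 5.91 on the control diet without LPS, 5.41 and 5.51 on ABA without LPS, and 5.06 to 5.17 with LPS on either diet. It fell on both diets, by 0.92 on the control diet, and it fell by 0.35 on ABA (interaction 0.57 ± 0.07, adjusted p = 0.022).

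These 5 calls lay close to the threshold. Leaving out any 1 array with LPS of ABA, or control diet with LPS replicate 2 or 3, ended the call for BC023105, where the adjusted p rose to at most 0.0859. Golga5 lost it without ABA with LPS replicate 2 or 3 or control diet with LPS replicate 2, 3 or 4 (at most 0.0783), and Tfec without ABA with LPS replicate 1 or 4 or the same 3 control arrays (at most 0.069). Fam78a lost it without ABA with LPS replicate 1 or any control diet array with LPS (at most 0.0675), and Scly without control diet with LPS replicate 2 or 4 (at most 0.0566). After centring each array on its median none of the 5 passed, with BC023105 at 0.0541, Golga5 at 0.144, Scly at 0.154, Tfec at 0.168 and Fam78a at 0.598. Without the arrays high in pancreas genes, Golga5 (0.0776) and Tfec (0.0539) missed the threshold and the other 3 genes passed. The adjusted p of these 5 genes ran from 0.00167 to 1 over all alternatives.

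**Figure D2:**
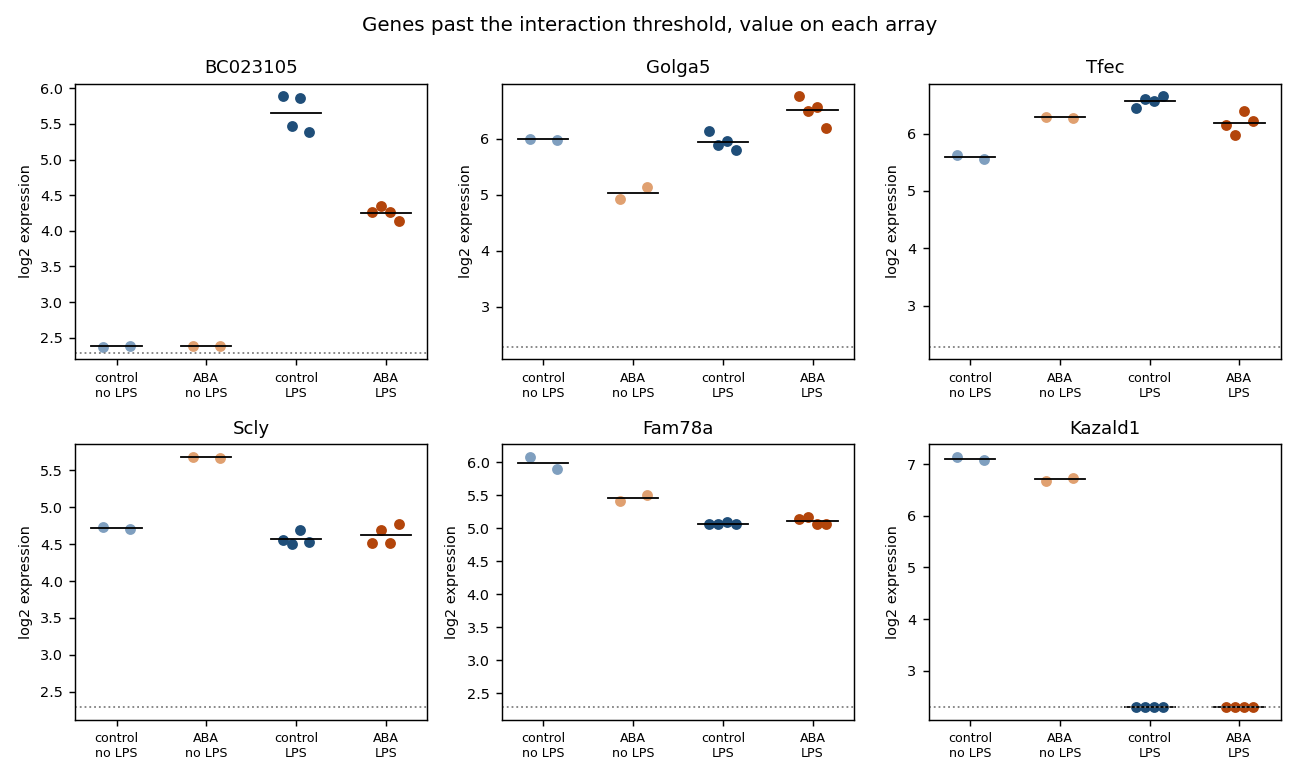
Log2 expression on each of the 12 arrays for 6 genes past the interaction threshold, by diet and LPS. Dots are arrays, horizontal bars are group means and the dotted line is the lowest value of 2.29. BC023105 differs between the diets with LPS, Golga5 and Tfec cross over, and Scly, Fam78a and Kazald1 differ only without LPS.

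Of the other 28 called genes, all but Fabp7, Gpc1 and Fsd2 were near the lowest value on 8 or more arrays. The values of these exceptions were low and nearly constant on all 8 arrays with LPS. They were 3.21 for Fsd2, 3.58 to 3.63 for Gpc1 and 2.87 to 2.94 for Fabp7. Kazald1, a secreted protein related to the insulin-like growth factor binding proteins, was at 7.14 and 7.07 on the control diet without LPS and at 6.68 and 6.72 on ABA, and at 2.29 or 2.30 on all 8 arrays with LPS. It fell by 4.81 on the control diet and fell by 4.40 on ABA, both lower bounds. Its interaction of 0.41 ± 0.03 (adjusted p = 0.00207) is thus the difference between the unchallenged levels, since the levels with LPS cannot go lower. Tcf21, a basic helix-loop-helix factor of spleen stroma, had the same form, at 6.48 and 6.83 on the control diet, 5.31 and 5.65 on ABA, and 2.29 to 2.43 with LPS (interaction 1.14 ± 0.15, adjusted p = 0.0238). The Kazald1 call held with any 1 of the 8 arrays with LPS left out, while that of Tcf21 was lost without any 1 of them (adjusted p of at most 0.0707).

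In further called genes with higher estimates on ABA the highest levels were on the control diet without LPS. Cd209b, the lectin SIGN-R1 of marginal zone macrophages, was at 3.32 and 3.18 there and at 2.29 to 2.42 on every other array (interaction 0.89 ± 0.06, adjusted p = 0.00101). Cyp39a1, an oxysterol hydroxylase, was at 3.87 and 3.70 there, and at 2.29 to 3.02 elsewhere (1.66 ± 0.23, adjusted p = 0.0278). Cd96, a receptor of T and natural killer cells, was at 4.08 on both of those arrays, at 2.91 and 3.42 on ABA without LPS and at 2.29 to 2.55 with LPS (1.05 ± 0.16, adjusted p = 0.0483). Btbd11 was at 4.66 on both control arrays, 2.97 and 3.58 on ABA, and 2.29 to 2.38 with LPS (1.39 ± 0.18, adjusted p = 0.022). In each of these genes the diets could not be told apart with LPS, where the values lay near the lowest apart from 1 Cyp39a1 array. Arvcf (0.98), Mob3b (0.90), Myct1 (0.78) and Fabp7 (0.75) were also highest there. Of these 8 genes, Cd209b, Arvcf and Mob3b stayed called with any 1 of the 8 arrays with LPS left out. They were near the lowest value on 10 of the 12 arrays, so this is not support for their calls. Btbd11 lost its call without any 1 of the 8 arrays with LPS (at most 0.0675), and Cd96 and Myct1 without any of these or without control diet without LPS replicate 2 (at most 0.137 and 0.13). Cyp39a1 lost it without ABA with LPS replicate 4 or any control diet array with LPS (at most 0.0888), and Fabp7 without control diet with LPS replicate 2, 3 or 4 (at most 0.0566).

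Among called genes with lower estimates, Mrc2, a collagen-binding endocytic receptor, was at 3.62 and 3.51 on ABA without LPS, 2.56 and 2.54 on the control diet without LPS, and 2.29 to 2.39 on all arrays with LPS (interaction -1.02 ± 0.06, adjusted p = 0.00101). Pitpnm3 (-1.02) and Tbc1d7 (-0.80) were likewise highest on ABA without LPS. Tbc1d7 lost its call without any 1 of the arrays with LPS other than ABA with LPS replicate 1 (adjusted p of at most 0.129). Pitpnm3 lost it without control diet with LPS replicate 2 (0.0542). Mrc2 kept its call with any 1 array with LPS left out. Ndufaf1, an assembly factor of respiratory complex I, differed on the LPS side instead. It was at 2.88, 2.87, 2.94 and 2.83 with LPS on the control diet and at 2.39 to 2.46 on the other 8 arrays. Its interaction of -0.42 ± 0.04 (adjusted p = 0.00621) was small, and its values lay within 1 log2 unit of the lowest. The remaining called genes, which include Gpc1 (-0.27), Acot11 (-0.38), Cep131 (-0.52) and Akap17b (0.61), had interactions of 1 log2 unit or less in size, except the clone-named 4930426D05Rik (1.73).

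Among the genes with the strongest LPS rises most estimates were lower on ABA, and none of them passed the interaction test (0 of 49, with 4 lower and 1 higher at a p under 0.05 before adjustment). Of the 49 genes whose rise averaged over diets was above 4 log2 units, 35 (71.4%) had a negative interaction, with a median of -0.52. Their median rise was 5.13 on the control diet and 4.70 on ABA. Among all genes tested 5538 (45%) were negative. The share of negative estimates was 65.1% of 63 genes that rose by 3 to 4 units, 46.3% of 149 at 2 to 3, 40.4% of 560 at 1 to 2, and 37.6% of 966 below 1. The median over the 49 genes ranged from -0.61 to -0.27 when 1 array was left out. These genes were measured on the same 12 arrays and are not independent of each other, so the counts describe these arrays.

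Among those genes, Acod1, the mitochondrial enzyme that makes itaconate in activated macrophages, went from 2.39 and 2.29 to 10.61, 10.93, 11.09 and 10.89 on the control diet. On ABA it went from 2.32 and 2.82 to 10.43, 10.59, 9.97 and 9.33. All 4 challenged ABA arrays were below the challenged control arrays, though the nearest pair were 10.59 and 10.61. The rise was 8.54 on the control diet and 7.51 on ABA (interaction -1.03 ± 0.46, adjusted p = 0.751). Gzmb, the cytotoxic protease granzyme B, was at 10.68, 11.11, 11.64 and 11.22 with LPS on the control diet and at 10.36, 9.94, 10.48 and 10.28 on ABA, also without overlap (-1.04 ± 0.34, adjusted p = 0.497). Mmp13, a collagenase, rose by 8.23 and 6.50 (-1.73 ± 0.64, adjusted p = 0.603). Rises that start near the lowest value, as for Acod1 (apart from 1 array at 2.82), Mmp13, Il6, Ifng and Vcan, are lower bounds. Saa3, an acute phase protein made by macrophages, rose by 8.87 and 7.09, and its challenged arrays overlapped (-1.78 ± 0.83, adjusted p = 0.781). Il1rn, the antagonist of the interleukin 1 receptor, rose by 8.35 and 7.60 (-0.75 ± 0.53). The estimate was positive for Cxcl9 (0.33 ± 0.58) and Cxcl2 (0.53 ± 0.68), chemokines for T cells and neutrophils. Of the 12 genes with the largest averaged rise 9 had a negative interaction, and the smallest adjusted p among them was 0.442.

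Inflammatory cytokines and chemokines had a median interaction of -0.73, against 0.01 over all genes. Of the 21 tested, 17 had a negative and 4 a positive estimate, and 0 were called. These counts include 3 genes near the lowest value on all 12 arrays, whose signs give no reading of the diet. With LPS 14 of the 21 rose on the control diet and 11 on ABA, where 7.12% and 9.62% of all genes did, with median responses of 2.46 and 1.22; the difference between the counts was not tested. The median interaction was -0.68 after quantile normalisation and -0.80 after median centring, and ran from -0.81 to -0.27 when 1 array was left out.

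Il18, an inflammasome-processed cytokine that primes interferon gamma release, had the smallest p of that list. Its levels were 7.89 and 7.99 on the control diet without LPS, 8.69 and 8.18 on ABA without LPS, 10.37, 10.61, 10.41 and 10.21 on the control diet with LPS, and 9.79, 9.41, 9.34 and 9.29 on ABA with LPS. ABA was above the control diet without LPS and below it with LPS, with no overlap on either side. It rose on both diets, by 2.46 on the control diet and by 1.02 on ABA. The interaction of -1.44 ± 0.25 (95% interval -2.01 to -0.86) had an adjusted p of 0.0903 and so missed the threshold.

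Ccl2, the monocyte chemoattractant, was at 6.48, 6.57, 6.57 and 5.84 with LPS on the control diet and at 5.38, 3.74, 5.37 and 5.01 on ABA. The groups did not overlap, while the unchallenged arrays did, at 3.48 and 2.87 on the control diet and 3.36 and 3.83 on ABA. It rose by 3.18 on the control diet, and its difference of 1.28 on ABA did not pass (interaction -1.90 ± 0.65, adjusted p = 0.542). Ccl4 (-0.88 ± 0.40) and Ccl5 (-0.76 ± 0.33), chemokines for T cells and monocytes, also had negative estimates that did not pass.

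Il6, a fever-inducing cytokine, and Ifng varied widely among the challenged ABA arrays. Il6 was at 2.29 on all 4 unchallenged arrays, at 5.46, 6.02, 7.08 and 6.72 with LPS on the control diet and at 4.87, 6.61, 4.18 and 2.30 with LPS on ABA (interaction -1.83 ± 1.38, adjusted p = 0.822). Ifng, the interferon of T and natural killer cells, was at 2.43 to 2.47 without LPS, at 6.86, 7.38, 9.44 and 7.93 with LPS on the control diet and at 7.31, 7.98, 5.70 and 2.50 on ABA (-2.04 ± 1.93, adjusted p = 0.868). ABA with LPS replicate 4 was at the unchallenged level for both genes. The challenged groups overlapped, since ABA with LPS replicate 2 (Il6) and replicates 1 and 2 (Ifng) lay among the control diet arrays, while the remaining ABA arrays lay below all of them. Il1b (0.08 ± 0.82), Il10 (0.23 ± 0.35) and Cxcl10 (-0.50 ± 0.55) had estimates within their error. Tnf was near the lowest value on all 12 arrays and Nos2 was not tested, so neither gives a reading of the diet.

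**Figure D3:**
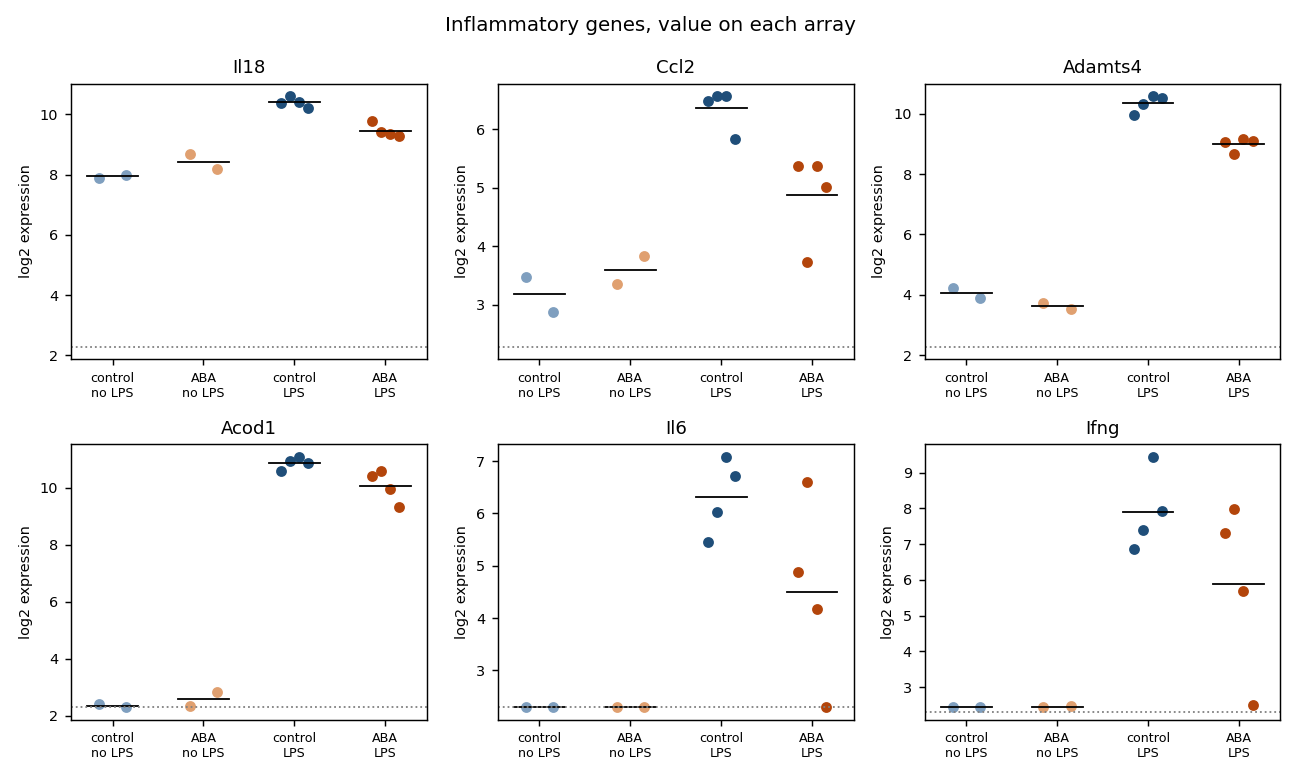
Log2 expression on each of the 12 arrays for 6 LPS-induced genes, by diet and LPS. Dots are arrays, horizontal bars are group means and the dotted line is the lowest value of 2.29. The challenged ABA arrays of Il18, Ccl2, Adamts4 and Acod1 lie below the challenged control arrays, and those of Il6 and Ifng spread down to 2.30 and 2.50.

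Most interferon-stimulated genes rose on both diets. Of 23 type I interferon-stimulated genes tested 20 rose on the control diet and 20 on ABA (7.12% and 9.62% of all genes did), with median responses of 3.52 and 3.43. Their interactions had a median of -0.31, with 16 negative and 7 positive, none called (0 of 23), and the median was -0.03 without ABA diet without LPS replicate 1. Irf7, the transcription factor that amplifies type I interferon, rose by 4.05 on the control diet and by 2.89 on ABA (-1.15 ± 0.40, adjusted p = 0.561). Of 19 interferon gamma-induced genes 15 rose on the control diet and 13 on ABA, and the median interaction was -0.16, with a range from -0.57 to 0.18 when 1 array was left out. Iigp1, an immunity-related GTPase, was at 12.63, 12.50, 12.55 and 12.09 with LPS on the control diet and at 11.83, 11.50, 11.66 and 11.53 on ABA, without overlap (-0.71 ± 0.24, adjusted p = 0.536). The 22 genes of the TLR4 and NF-kB pathway had a median of 0.01, from Cd14, the LPS co-receptor, at -0.63 to Nfkbie at 0.54.

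The diets were also compared directly among the 8 challenged arrays, the better measured side of the interaction. There 12 genes passed, 0.0975% of those tested, with 3 higher (0.0244%) and 9 lower (0.0731%) on ABA. Of these 12, BC023105 and Ndufaf1 also passed the interaction test, and only these 2 kept the call with any 1 of the 12 arrays left out. Rdh10 lost it without ABA with LPS replicate 1 or 4 or control diet with LPS replicate 2 (adjusted p of at most 0.0845), and Tnfrsf21 without any 1 of the 8 challenged arrays (at most 0.108). Ski lost it in all 12 such fits and Vcan, Adamts4, Src, Mmp3, Lhfp, Ms4a4d and Atp8b1 in 11 of 12, each with an adjusted p of at most 0.169. The count was 3 to 7 in those fits, and 3 (BC023105, Ndufaf1 and Rdh10) with no filter on low values. Vcan, which encodes the matrix proteoglycan versican, had the largest difference. It was at 8.22, 7.99, 8.22 and 7.61 with LPS on the control diet and at 5.13, 5.27, 6.47 and 4.89 on ABA, and at 2.29 to 2.47 on the 4 unchallenged arrays. It rose on both diets, by 5.59 on the control diet and by 3.09 on ABA, and the interaction was -2.50 ± 0.55 (adjusted p = 0.213).

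Tnfrsf21, the death receptor DR6, was at 8.92, 9.04, 8.87 and 8.77 with LPS on the control diet and at 8.08, 7.93, 8.07 and 8.13 on ABA, and its rise was 1.46 and 0.49. Its interaction was -0.98 ± 0.16 (adjusted p = 0.0812). Adamts4, a protease that cleaves versican and aggrecan, was at 9.95, 10.32, 10.58 and 10.52 on the control diet with LPS and at 9.06, 8.65, 9.15 and 9.10 on ABA (interaction -0.94 ± 0.28, adjusted p = 0.442). In these genes all 4 challenged ABA arrays were below all 4 challenged control arrays. Src, the tyrosine kinase, was the reverse, at 5.15, 4.86, 4.70 and 5.02 on ABA with LPS and 3.71 to 4.10 on the control diet with LPS, with 4.02 to 4.15 on the unchallenged arrays. It rose on ABA by 0.88, while the control diet difference of -0.14 did not pass (interaction 1.02 ± 0.20, adjusted p = 0.128).

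Mmp3, the metalloproteinase stromelysin, was higher with LPS on ABA by 0.83 log2 units and rose on both diets (by 5.36 on ABA; interaction 0.35 ± 0.19, adjusted p = 0.806). The others of the 12 were Ski (higher by 0.51) and Lhfp, Rdh10, Ms4a4d and Atp8b1, which were lower on ABA by 0.83, 0.93, 0.81 and 0.48 log2 units. For Rdh10 and Ms4a4d the unchallenged ABA arrays were lower too, and their interactions were -0.32 ± 0.16 and -0.03 ± 0.17.

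Interactions were mostly of opposite sign in the gene lists of macrophages and of B and T cells, with 0 members called in any. The 12 natural killer and cytotoxic genes had a median of 0, with 6 positive and 6 negative. In bulk spleen, fewer cells of a type and less RNA per cell cannot be told apart. All 18 macrophage genes had a negative interaction, with a median of -0.57, where 45% of all genes were negative. With LPS, 4 of them fell and 2 rose on the control diet, where 6.54% and 7.12% of all genes did. On ABA 8 fell and 0 rose, where 5.82% and 9.62% of all genes did, and the difference between the diets' counts was not tested. Their mean log2 level was 8.26, 8.41, 8.24 and 8.24 with LPS on the control diet and 7.75, 7.42, 7.84 and 7.96 on ABA, without overlap. Without LPS it was 9.16 and 9.17 on the control diet and 9.70 and 8.997 on ABA. The median interaction was -0.33 without ABA diet without LPS replicate 1 and -0.95 without its replicate 2.

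Adgre1, the macrophage surface antigen F4/80, was at 6.17, 6.04, 5.99 and 5.93 with LPS on the control diet and at 4.76, 3.46, 4.59 and 4.77 on ABA, against 4.76 to 5.85 without LPS (interaction -1.94 ± 0.57, adjusted p = 0.426). Spic, the transcription factor of red pulp macrophages, rose by 1.57 on the control diet, and its difference of 0.61 on ABA did not pass (-0.96 ± 0.29, adjusted p = 0.438). In both genes the challenged ABA arrays were all below the challenged control arrays. Cd5l, a secreted macrophage protein, fell by 3.47 on ABA, while the control diet difference of -1.40 did not pass (-2.07 ± 0.64, adjusted p = 0.465). Its level of 12.81 on ABA diet without LPS replicate 1, against 10.94 on replicate 2, enters that value. Slc40a1, the iron exporter ferroportin, and Cd163, the haemoglobin scavenger receptor, fell steeply on both diets. Slc40a1 fell by 5.54 on the control diet and fell by 6.26 on ABA, and Cd163 fell by 5.44 on the control diet and fell by 5.58 on ABA. Cd163 was near the lowest value on all 8 challenged arrays, so its falls are lower bounds.

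All 13 B cell genes had a positive interaction (median 0.68), as did 11 of 12 T cell genes (median 0.66), and 13 of 16 antigen presentation genes (median 0.37). Over all genes tested 45% were negative. Median LPS responses of the B cell genes were -0.78 on the control diet and 0.01 on ABA, and those of the T cell genes were -1.10 and -0.28. The B cell mean was 8.46, 8.64, 8.74 and 8.26 with LPS on the control diet and 9.28, 8.53, 8.86 and 9.04 on ABA, which overlap. Without LPS it was 9.48 and 9.55 on the control diet and 8.66 and 9.65 on ABA, so ABA diet without LPS replicate 1 was the low array. Without that array the medians were 0.19 for B cell, 0.06 for T cell and 0.17 for antigen presentation genes. Cd79a, a chain of the B cell receptor complex (1.53 ± 0.74), Cd28, the T cell co-stimulatory receptor (2.21 ± 0.91), and H2-Ob, a chain of the class II peptide editor H2-O (1.06 ± 0.64), had large estimates with large errors, at adjusted p of 0.802, 0.688 and 0.806.

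**Figure D4:**
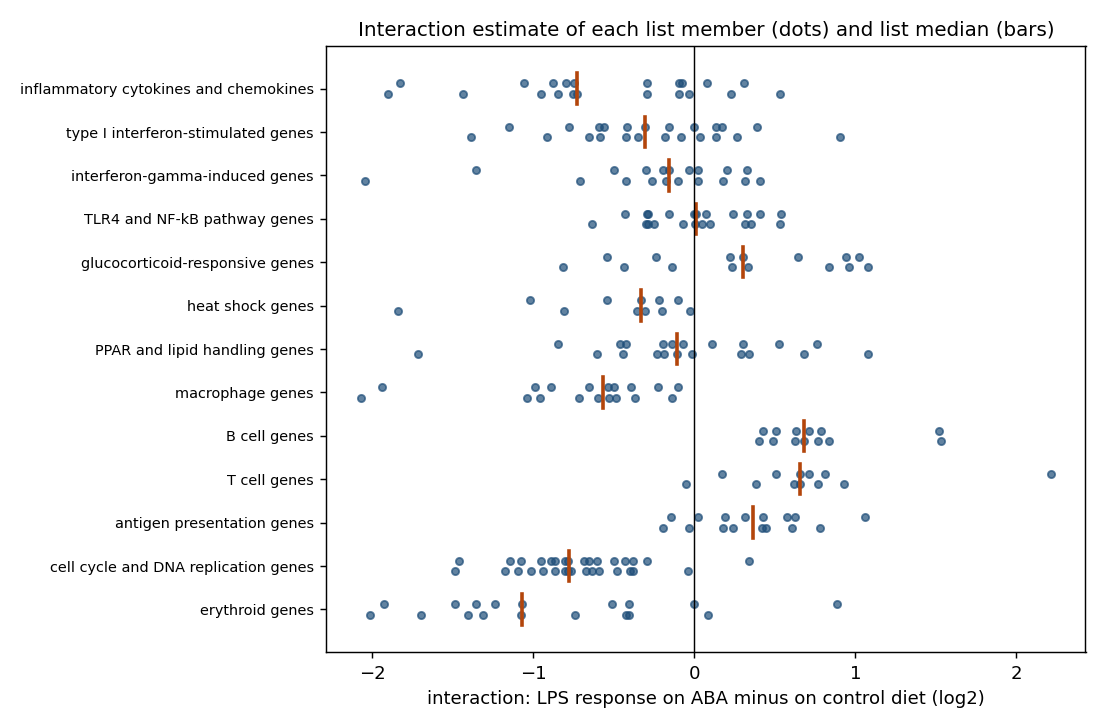
Interaction of each tested member of 13 gene lists (dots; log2 LPS response on ABA minus on the control diet) with the list medians (orange bars) and a line at 0. Macrophage genes all lie below 0 and B cell genes all above it, and the cytokine, cell cycle and erythroid medians are -0.73, -0.78 and -1.07; no dot is past the threshold.

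Proliferation and red cell genes depended on which unchallenged ABA array was used. The 32 cell cycle and DNA replication genes had a median interaction of -0.78, with 31 negative and 0 called. This median was 0.27 without ABA diet without LPS replicate 1 and -1.96 without replicate 2. The list mean was 9.10 and 6.92 on those arrays, 7.89 and 7.36 on the control diet without LPS, and 6.46 to 7.74 with LPS. The 18 erythroid genes had a median of -1.07, with 15 negative and 0 called, which became 0.69 and -3.09 in the same order. With LPS their mean was 5.12 to 6.51 on the control diet and 4.70 to 5.66 on ABA. No direction can be given for these lists, and the part of that array in the other lists was not tested beyond the values given without it. Slc4a1, the red cell anion exchanger, ran from 4.61 to 14.64 over the 12 arrays (0.89 ± 2.71).

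The number of called genes moved with the same arrays. It was 360 (70 higher, 290 lower) without ABA diet without LPS replicate 1 and 933 (304 higher, 629 lower) without replicate 2. It was 224 and 176 without control diet without LPS replicates 1 and 2. In each of these fits the lone array left in its group is assumed to vary like the other groups. Without both arrays high in pancreas genes 180 genes were called, 158 higher and 22 lower, and 26 of the 33 were among them. The 13 pancreas genes tested all had a positive interaction (median 2.04), and their level was set by those 2 arrays. Leaving out control diet with LPS replicate 2 gave 12 called genes, replicate 3 gave 20 and replicate 4 gave 16.

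**Figure D5:**
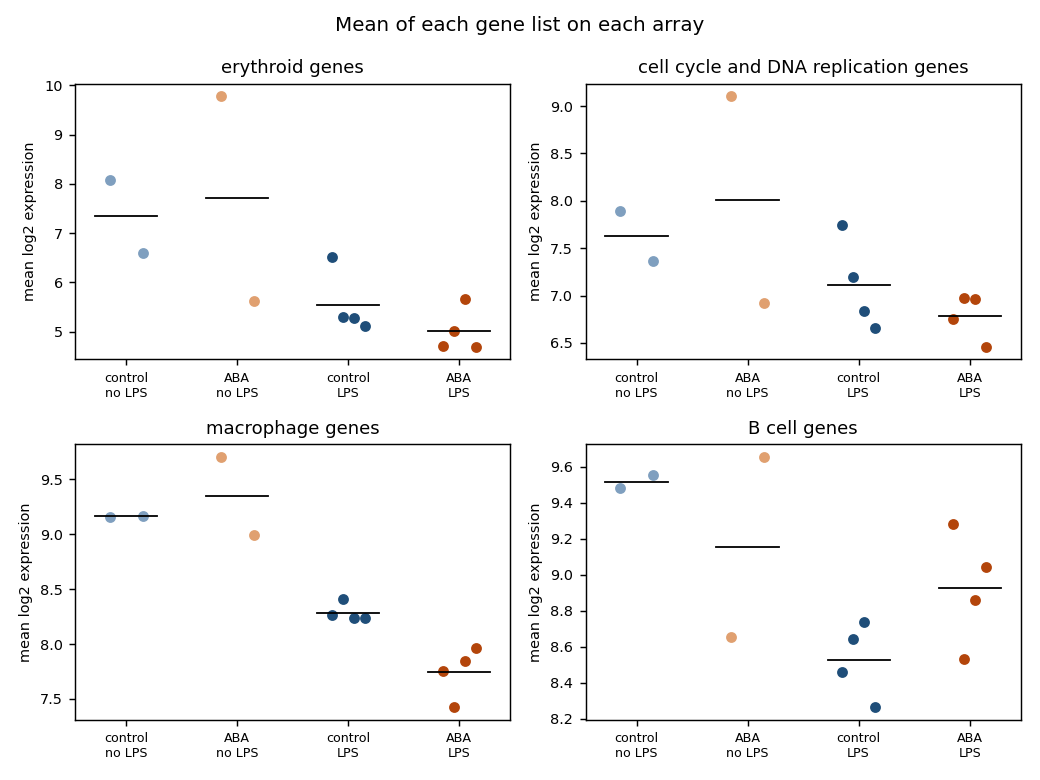
Mean log2 level of 4 gene lists on each of the 12 arrays, by diet and LPS; dots are arrays and horizontal bars are group means. The unchallenged ABA arrays are far apart for erythroid (9.78 and 5.63) and cell cycle genes (9.10 and 6.92), and the macrophage means with LPS do not overlap between the diets.

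Genes tied to the proposed mediators of ABA gave no call. With only 0.268% of all genes tested called, that absence is near the share over all genes and is not a result about them. Lancl2 was at 5.38, 4.94, 5.49 and 4.99 with LPS on the control diet and at 4.51, 5.45, 4.65 and 3.85 on ABA, with 4.61 and 4.91 on the control diet and 6.44 and 3.86 on ABA without LPS (interaction -0.97 ± 0.92, adjusted p = 0.868). Its groups overlapped on both sides. Its relative Lancl1 had an estimate of 0.55 ± 0.23 (adjusted p = 0.692). Pparg was near the lowest value on 10 of the 12 arrays, so its response could not be read (-0.44 ± 0.43). The 18 cAMP signalling and LANCL genes had a median of 0.01 and the 21 PPAR and lipid handling genes a median of -0.11, with 8 positive and 13 negative. The latter median turned to 0.25 without ABA diet without LPS replicate 1. Acadm, a fatty acid oxidation enzyme, had an estimate of 0.76 ± 0.24 (adjusted p = 0.481).

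Of 15 glucocorticoid-responsive genes 10 rose on the control diet and 12 on ABA, where 7.12% and 9.62% of all genes did. Their median interaction was 0.30, with 10 positive, 5 negative and 0 called, where 45% of all genes were negative. Sgk1, a kinase induced by glucocorticoids, had an estimate of 0.96 ± 0.28 (adjusted p = 0.417). All 11 heat shock genes had a negative interaction (median -0.33), where 45% of all genes were negative. Of the 11, 2 were near the lowest value on all 12 arrays. The median ranged from -0.52 to -0.22 when 1 array was left out. Hsp90aa1, the inducible HSP90 chaperone, rose by 0.59 on the control diet, and its difference of 0.05 on ABA did not pass (-0.54 ± 0.17, adjusted p = 0.457). Col4a1, a basement membrane collagen, rose by 2.38 on the control diet and by 1.30 on ABA (-1.08 ± 0.31, adjusted p = 0.41), and Stard4, a sterol carrier, fell by 1.37 on the control diet with a difference of -0.24 on ABA (1.13 ± 0.33, adjusted p = 0.411).

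The same contrast was taken in the wild-type mice of the other experiment, 8 separately normalised arrays in 4 groups of 2. That experiment also holds PPARg-null mice (PPAR g flfl; MMTV-Cre+, with Cre under the MMTV promoter), whose arrays enter the estimate of its spread and not the contrast. Of the 33 called genes 26 had estimates beyond 0.1 in size in both experiments, and 11 of these (42.3%) had the same sign, against 46.8% of 6492 such genes over all genes tested. None of the following genes passed there, and their standard errors ran from 0.18 to 1.70. BC023105 was at -1.28 ± 0.74, Ndufaf1 at -1.23 ± 0.65, Cd209b at 0.86 ± 1.29 and Fam78a at 1.08 ± 0.47, with the same sign as above. For BC023105 and Fam78a the larger diet difference was on the same side in both experiments. For the other genes it changed sides. The diet difference of Ndufaf1 there was 0.72 without LPS and -0.51 with it, and that of Cd209b was -0.16 without LPS and 0.70 with it. Golga5 was at 0.08 ± 0.18. Tfec (1.47 ± 1.00), Scly (0.22 ± 0.95) and Il18 (0.77 ± 0.60) had the opposite sign, as did Mmp13 (2.22 ± 0.61, against -1.73, limma adjusted p = 0.583 there). Other inflammatory genes went both ways. The sign was the same for Ifng (-4.61 ± 1.42, adjusted p = 0.679 there), Adamts4 (-1.31 ± 0.83), Acod1 (-0.61 ± 0.59), Cxcl10 (-0.83 ± 1.13) and Il6 (-0.45 ± 1.70). Cxcl2 (0.50 ± 0.52) and Il1b (0.40 ± 1.69) also kept their sign. The sign was opposite for Ccl5 (0.89 ± 0.77), Ccl4 (0.45 ± 1.41), Irf7 (0.41 ± 0.63) and Il1rn (0.26 ± 0.59). Cxcl9 (-1.07 ± 1.10) and Il10 (-0.97 ± 1.62) were opposite too, as were Ccl2 (0.03 ± 0.76), Gzmb (0.002 ± 0.39) and Iigp1 (0.14 ± 0.79). Of the macrophage genes, Adgre1 (1.33 ± 0.80) and Cd5l (2.22 ± 1.22) were opposite. Of the 49 most strongly induced genes 22 (44.9%) were negative there, with a median of 0.04. The inflammatory cytokine list had a median of 0.25 there, the macrophage list 0.96, the B cell list 0.09 and the heat shock list -0.52. That experiment called 9 genes (0.0731%), and 711 had a p under 0.05 before adjustment.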

How the data were processed

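RNA of 28 spleen samples was hybridised to 1-colour expression arrays. Log2 values per probe set were deposited by the authors; GCRMA and limma are named, without versions or roles, per the submitters' processing notes. That they are log2 was read from their range. The lowest value differed between the experiments (2.29 and 2.24), so these were taken as normalised separately. Probe sets naming 1 gene (34945 of 45101) were used; 932 named several genes and 9224 none.

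A model with 1 mean for each of the 4 groups was fitted in limma 3.58.1 (R 4.3.3; 8 residual and 0.727 prior degrees of freedom), with Benjamini-Hochberg adjustment at 0.05. The ± is the standard error. The other experiment was fitted with its 16 arrays, 8 of them from PPARg-null mice, which share the estimate of the spread. The fit was tested on simulated data with the same spread in all groups of a gene. Changes were planted there only in genes with higher mean levels, so that test does not cover called genes near the lowest value.

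Members and the 31 gene lists (581 entries, 516 with a probe set) were chosen with earlier results of these data known. Named genes were the 12 highest and 12 lowest called interactions, clone names excluded, each list's smallest p, and Tnf, Il1b, Il6, Il10, Ifng, Acod1, Nos2, Cxcl10, Ccl2, Pparg and Lancl2. Other genes, including BC023105, Kazald1, Vcan, Src, Tnfrsf21, Adamts4, the strongest LPS responders and further list members, were chosen after their values were seen. Alternatives were other normalisations, filters, probe set rules, variance models, array weights, a replicate block, a fit of 20 wild-type arrays and leaving out each array. Not every list is described.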

Additional observations from a re-analysis of the deposited data

Results flagged for a closer look

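Among 189 sets of 4 challenged arrays, for a gene or a list mean, 24 had an array far from the other 3 by Dixon's ratio, where chance gives about 1 in 20. That rate does not hold where the other 3 arrays are nearly tied, and the ratio takes no account of the size of the gap. Some gaps were thus very small, as for Fam78a on the control diet (5.062, 5.065, 5.094 and 5.065) and Gpc1 on ABA (3.628, 3.582, 3.628 and 3.628). On the control diet with LPS, replicate 1 stood apart for Fabp7 (log2 level 2.94), acute phase and antimicrobial genes (mean 8.13), sterol synthesis genes (6.02) and erythroid genes (6.51). Replicate 2 stood apart for Lancl1 (3.34), Ctrl (3.2), Cpa1 (6.19), pancreas genes (6.09) and macrophage genes (8.41), replicate 3 for Fam78a (5.09), Mmp3 (7.84) and Atp8b1 (3.08), and replicate 4 for Sgk1 (7.16), Fcrla (6.94), Ccl2 (5.84), Cd79a (5.45) and T cell genes (6.72). On the ABA diet with LPS, replicate 1 stood apart for Ly75 (8.6), replicate 2 for Gpc1 (3.58), Stard4 (5.43) and Adgre1 (3.46), replicate 3 for acute phase genes (8.17) and adipose genes (4.87), and replicate 4 for endoplasmic reticulum stress genes (9.08).

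The LPS response differed between the diets by the interaction test for 33 genes. The estimate was positive for 4930426D05Rik (1.73), Cyp39a1 (1.66), Golga5 (1.51), Btbd11 (1.39), Tcf21 (1.14), Cd96 (1.05), Arvcf (0.98), Mob3b (0.90), Cd209b (0.89), Myct1 (0.78), Fabp7 (0.75), Akap17b (0.61), Fam78a (0.57), Hlcs (0.52), Kazald1 (0.41), Zfp2 (0.39), Crisp3 (0.38), 9130008F23Rik (0.31) and C77080 (0.22). It was negative for BC023105 (-1.41), Tfec (-1.08), Mrc2 (-1.02), Pitpnm3 (-1.02), Scly (-0.90), Tbc1d7 (-0.80), Cep131 (-0.52), Ndufaf1 (-0.42), Acot11 (-0.38), Fam217b (-0.31), 2310022B05Rik (-0.31), Gpc1 (-0.27), Colq (-0.20) and Fsd2 (-0.19).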

How the results depend on the processing

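The count of 33 interaction genes was 22 after quantile normalisation, 0 after median centring, 50 with no filter, 0 with a 60th percentile filter, 0 with the filter on distance from the lowest value, 38 with the mean of probe sets, 41 with trended robust variances, 16 with array weights and 0 in the fit of 20 wild-type arrays; before adjustment limma gave 705, 649, 541 and 524 genes with a p under 0.05 in the 4 settings with 0. Chosen after seeing the data, leaving out the arrays high in pancreas genes gave 180 and an erythroid covariate 63. It ran from 12 to 933 when 1 array was left out. The 3273 genes changed by LPS became 1831 with array weights, and 2601 to 3850 with 1 array left out. The 12 genes differing by diet with LPS became 3 with no filter, 62 with array weights, 2 with 20 arrays and 4 without the pancreas arrays, and 3 to 7 with 1 array left out. The 50 differing by diet without LPS became 14 after centring, 20 with the 60th percentile filter, 0 with the stricter filter (716 at an unadjusted p under 0.05 by limma), 21 with weights, 1 with 20 arrays, 220 without the pancreas arrays and 170 with the erythroid covariate, and 37 to 1157 with 1 array left out. The 9 interaction genes of the other experiment became 5 after quantile normalisation, 0 after centring (833 unadjusted by limma), 15 with no filter and 1 with the mean of probe sets. The cause of these changes was not tested. In the 20-array fit the sign turned for Acot11 (0.32), Fam217b (0.067), Gpc1 (0.077) and 2310022B05Rik (0.063), and no other alternative turned the sign of a called gene. Of 41 named genes that were not called, 9 changed sign in at least 1 alternative, 5 of them when 1 array was left out. With the replicate number as a block, the counts were 2 for the interaction, 1752 for LPS, 3 for diet with LPS and 9 without. Same-numbered arrays of different groups did not deviate together (r from -0.19 to 0.39, median -0.02, over 14 pairs), 4 of 12 arrays correlated best with their own number, and the numbers were not taken as pairing.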
